A study of Danio rerio with 6 samples.

Results

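The receptors through which the zebrafish ovary reads gonadotropins and sex steroids were followed by RNA-seq in ovaries of 3 ddx4-L mutant and 3 WT females or pools of females, dissected at 6 mpf. The names searched were fshr, lhcgr, esr1, esr2a, esr2b, ar, pgr, paqr7b, paqr8 and gper1, matched to the gene symbols of the table without regard to case, and a name that was not found was searched again without its final a or b. This gave 10 gene IDs among the 32519 genes of the table. The symbol ESR2 belongs to 2 of these IDs, and which is esr2a and which esr2b was not settled, so both are named by their IDs. The paqr7b gene was taken as the ID with the symbol PAQR7, since paqr7a has a separate row. Mutant females were homozygous for a short CRISPR-Cas9 deletion in alternative exon 4 of ddx4, the exon that the long transcript ddx4-L includes (ddx4-E4Δ), and the transcript that skips this exon is not hit by the deletion. Both genotypes were kept under the same conditions. The 3 samples of a genotype are biological replicates per the study, with the number of females in each not given.

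In fish, follicle-stimulating hormone acts on Fshr of the granulosa cells, and luteinizing hormone acts on Lhcgr of the follicle wall. Both are G protein-coupled receptors that raise cAMP and drive the synthesis of steroids in the follicle. Estrogens and androgens bind nuclear receptors, which are transcription factors switched on by their ligand, while progestins act on the oocyte surface through membrane receptors of the Paqr family in oocyte maturation and on the nuclear receptor Pgr of follicle cells in ovulation. Gper1 is a membrane receptor for estrogens that in zebrafish helps to hold the oocyte in meiotic arrest.

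The values deposited were whole numbers that summed to 76520483 to 86263179 per library. They exceed the reads sequenced, and the value 4 occurred most often above 0 in all 6 libraries, and 1 fragment thus appears to be worth about 4 counts of the table. A detection floor of 12 counts, or about 3 fragments, was therefore used, equal to 0.139 to 0.157 CPM (counts scaled to the library total). It covers counting error only. The sums of granulosa markers and of steroidogenic markers lay above this floor in all libraries (the plot of marker sums). Single markers did not all do so. STAR had 23, 11 and 0 counts in mutant replicates 1, 2 and 3 and 20, 10 and 27 counts in WT replicates 1, 2 and 3. Liver markers were far higher in mutant replicate 2 than elsewhere. Their summed level over 7 genes, which include fabp10a, tfa and apoa1b, was 18.5, 777.2 and 13.5 CPM in mutant replicates 1, 2 and 3, against 1.6, 0.609 and 4.24 CPM in WT replicates 1, 2 and 3. The 7 vitellogenin genes, which code for the yolk precursors that the liver makes under estrogen, behaved alike, with a sum of 21.9, 2881 and 1.35 CPM in the mutant and 3.37, 0.742 and 3.57 CPM in WT. The part of this signal in the receptor results was not tested, and values without mutant replicate 2 are given where it matters.

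**Figure D1:**
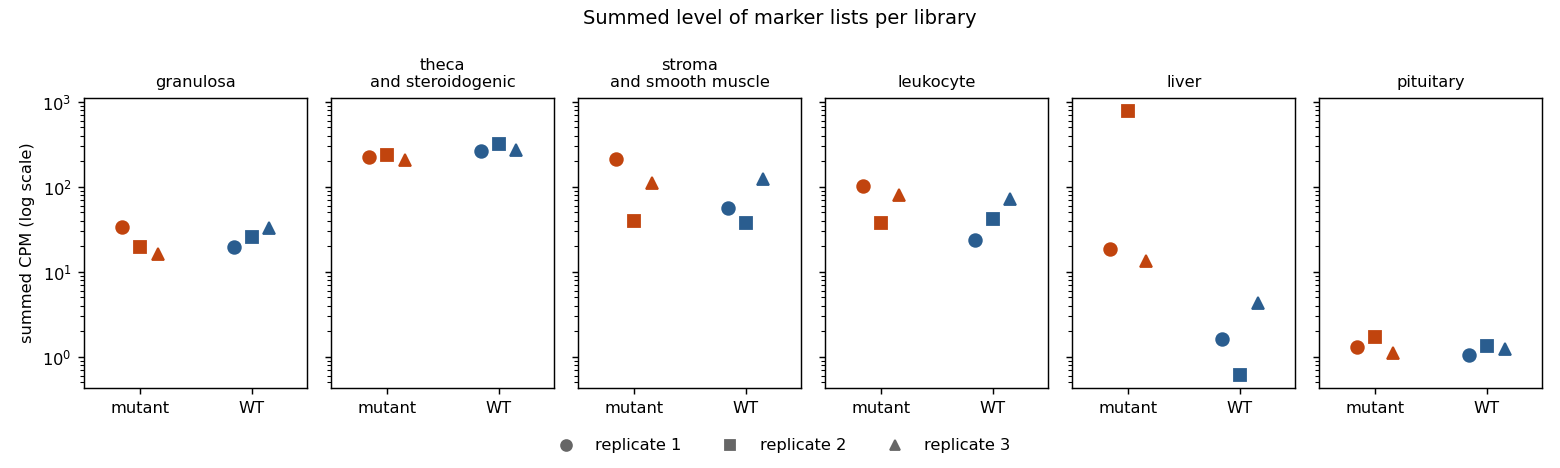
Summed CPM of 6 marker lists in each library on a log scale, with mutant libraries left of WT libraries and 1 symbol per replicate. The liver list reached 777.2 CPM in mutant replicate 2 and stayed at or under 18.5 CPM in the other 5 libraries.

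None of the 8 receptors that could be tested was called as different between the genotypes. All genes that passed a filter on low counts entered a quasi-likelihood fit in edgeR, and a gene was called when its adjusted p was under 0.05. Of the 10 receptor genes, 8 passed the filter and 0 were called, where 4.57% of the 19353 genes tested were called. At an unadjusted p under 0.05 the count was also 0, against 19.9% of all genes tested, and DESeq2 called 0 of the receptors as well, against 11.2% of the genes to which it gave an adjusted p. In 5 receptor genes the log2 fold change of mutant over WT was positive and in 3 it was negative, with a median of 0.068, beside a median of 0.014 over all genes tested. No overlap between the genotypes was seen for 1 of the 8, ESR2 (ENSDARG00000016454), where 28.4% of all genes tested showed none. In whole ovaries, fewer cells of a type and less RNA per cell cannot be told apart.

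**Figure D2:**
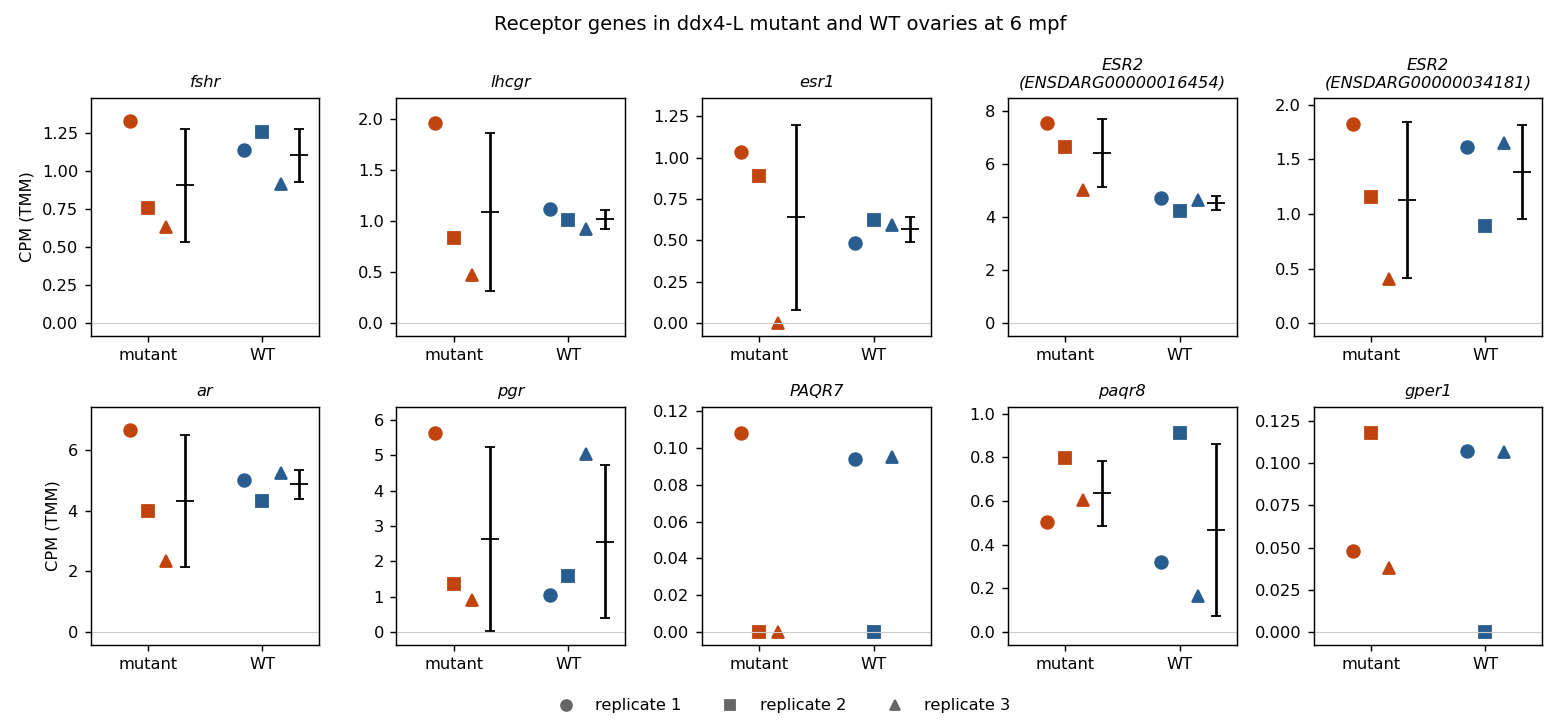
Level of each of the 10 receptor genes in CPM scaled by TMM, in 3 ddx4-L mutant libraries (left) and 3 WT libraries (right), with the mean and SD as bars for the 8 genes that were tested. The genotypes overlapped in all panels other than that of ESR2 (ENSDARG00000016454), and PAQR7 and gper1 stayed under 12 counts in all libraries.

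The intervals show what these 6 libraries could resolve. Standard errors (SE) of the log2 fold change ran from 0.25 to 1.22. The narrowest 95% interval, that of ESR2 (ENSDARG00000016454), reached from -0.077 to 1.08. The widest, that of esr1, reached from -2.68 to 3.03, so that changes of several-fold in either direction lay inside it. A lack of calls in genes of such depth does not show that their levels were equal.

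**Figure D3:**
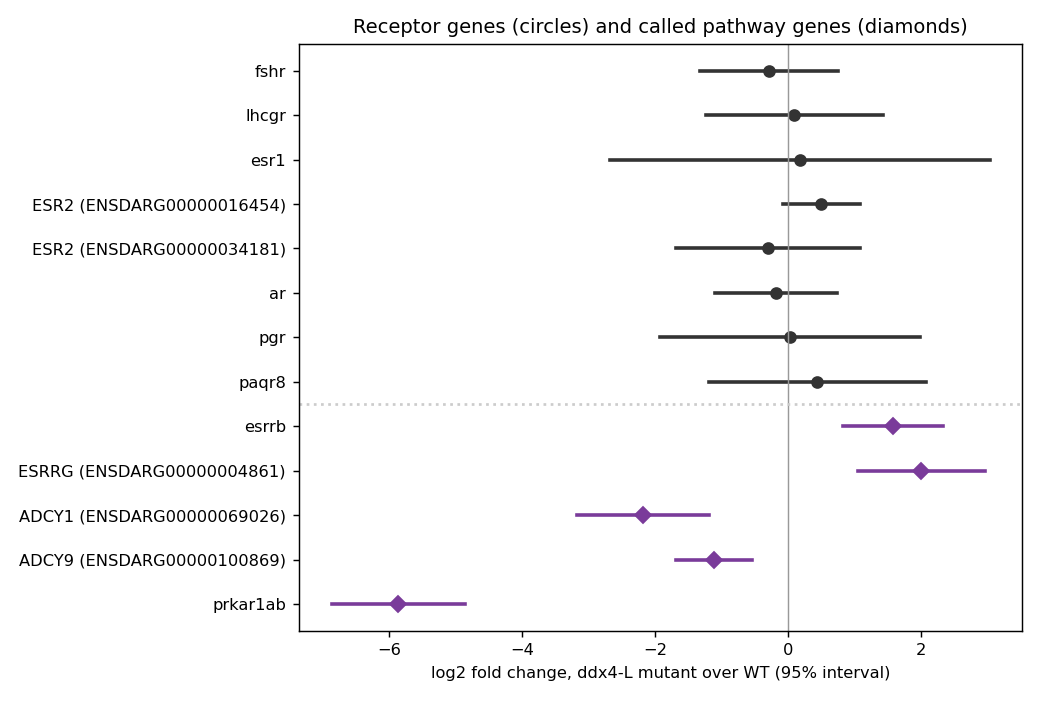
Log2 fold change of ddx4-L mutant over WT with its 95% interval for the 8 tested receptors (circles) and the 5 genes called in the pathway lists (diamonds). Each circle's interval includes 0, and the diamonds run from -5.86 for prkar1ab to 2.00 for ESRRG.

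The gonadotropin receptors were sparsely counted in both genotypes. The fshr gene (ENSDARG00000071494), the receptor for follicle-stimulating hormone, had 111, 58 and 50 counts in mutant replicates 1, 2 and 3, against 85, 95 and 77 counts in WT replicates 1, 2 and 3. Mutant replicate 1 was the highest of the 6 libraries and the other two mutant libraries were the lowest. Its level was 0.907 ± 0.374 CPM in the mutant and 1.1 ± 0.175 CPM in WT (mean ± SD, n = 3 each), a log2 fold change of -0.28 (SE 0.45, 95% interval -1.33 to 0.76, adjusted p = 0.78). Without mutant replicate 1 the log2 fold change was -0.67, with an adjusted p of 0.48. Since about 19.8 fragments per library lay behind this gene, counting alone would give a coefficient of variation near 22.5%, and the measured one was 41.2% in the mutant and 15.9% in WT.

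The lhcgr gene (ENSDARG00000026081), the receptor for luteinizing hormone, had 163, 64 and 37 counts in mutant replicates 1, 2 and 3 and 83, 76 and 78 counts in WT replicates 1, 2 and 3. The WT libraries lay close together, whereas the mutant libraries spanned a 4.19-fold range that enclosed all WT values. Means were 1.09 ± 0.776 CPM in the mutant and 1.02 ± 0.0950 CPM in WT (SD, n = 3 each). The log2 fold change was 0.099 (SE 0.57, 95% interval -1.23 to 1.43, adjusted p = 0.95), and it turned to -0.64 without mutant replicate 1 (adjusted p = 0.53).

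The gonadotropin receptors were set against the summed level of the granulosa markers of the same library, a scale chosen after the values were seen. On it, the mutant libraries came closer together and the WT libraries lay further apart, for fshr and for lhcgr. The fshr gene stood at 4.0%, 3.84% and 3.86% of the granulosa sum in mutant replicates 1, 2 and 3. In WT replicates 1, 2 and 3 it stood at 5.87%, 4.91% and 2.78%. For lhcgr the shares were 5.88%, 4.23% and 2.86% in the mutant and 5.74%, 3.93% and 2.82% in WT, so both genotypes covered nearly the same range. Granulosa markers themselves summed to 33.3, 19.8 and 16.3 CPM in the mutant and to 19.4, 25.6 and 32.8 CPM in WT (exact permutation test, two-sided, p = 0.8), and 0 of the 13 tested were called by edgeR, 0 had an unadjusted p under 0.05 and DESeq2 called 0. Among them, gsdf, a growth factor of granulosa cells, had 7.56 ± 0.558 CPM in the mutant and 7.81 ± 0.596 CPM in WT, and inha, the inhibin alpha subunit, had 3.21 ± 2.18 CPM and 4.26 ± 1.09 CPM (SD, n = 3).

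Of the nuclear estrogen receptors, ESR2 (ENSDARG00000016454) was the receptor gene with the clearest separation of the genotypes. It was counted 628, 509 and 397 times in mutant replicates 1, 2 and 3, against 351, 318 and 390 times in WT replicates 1, 2 and 3. All 3 mutant libraries lay above all 3 WT libraries in CPM, with mutant replicate 3 at 5.01 CPM just above the highest WT library at 4.71 CPM. Means were 6.40 ± 1.28 CPM in the mutant and 4.52 ± 0.269 CPM in WT (SD, n = 3 each), a 1.42-fold higher level. The log2 fold change of 0.50 did not pass the test (SE 0.25, adjusted p = 0.31), and with any 1 library left out it ran from 0.37 to 0.65, at an adjusted p of 0.21 to 0.52.

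The other estrogen receptor of this kind, ESR2 (ENSDARG00000034181), showed no such separation. Its counts were 152, 88 and 32 in mutant replicates 1, 2 and 3 and 120, 67 and 139 in WT replicates 1, 2 and 3. Mutant libraries held both the highest and the lowest of the 6 values. Levels of 1.13 ± 0.711 CPM in the mutant and 1.38 ± 0.429 CPM in WT (SD, n = 3 each) gave a log2 fold change of -0.30 (SE 0.59, adjusted p = 0.83), which was 0.11 without mutant replicate 3. Whether the change differs between the ESR2 genes was not tested.

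The esr1 gene (ENSDARG00000004111) codes for the estrogen receptor that in the liver of females switches on vitellogenin. It had 86, 68 and 0 counts in mutant replicates 1, 2 and 3, against 36, 47 and 50 counts in WT replicates 1, 2 and 3. Mutant replicates 1 and 2 lay above all WT libraries. In mutant replicate 3, where no count was found, a level of up to 0.152 CPM by library total would still be possible. Mutant replicate 2, with 0.889 CPM of esr1, is the library with the high liver markers, while mutant replicate 1 had 1.03 CPM of esr1 beside a liver sum of 18.5 CPM. Over all libraries the log2 fold change was 0.18 (SE 1.22, adjusted p = 0.95). It was -0.16 without mutant replicate 2 and 0.76 without mutant replicate 3, so its direction rests on single libraries.

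The androgen receptor gene ar (ENSDARG00000067976) had 554, 304 and 185 counts in mutant replicates 1, 2 and 3 and 374, 327 and 443 counts in WT replicates 1, 2 and 3. Mutant replicate 1 exceeded all WT libraries, and the other two mutant libraries fell below all of them. With 4.32 ± 2.18 CPM in the mutant and 4.87 ± 0.481 CPM in WT (SD, n = 3 each), the log2 fold change was -0.17 (SE 0.39, 95% interval -1.09 to 0.74, adjusted p = 0.85). Without mutant replicate 3 it was 0.13, and without mutant replicate 1 it was -0.63 (adjusted p = 0.40). About 91.1 fragments per library stand behind this gene, for which counting would give a coefficient of variation near 10.5%, against 50.4% measured in the mutant and 9.88% in WT.

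The nuclear progestin receptor gene pgr (ENSDARG00000035966), which zebrafish follicle cells need for ovulation, had the largest coefficient of variation of the 8 tested receptors in both genotypes, 99.3% in the mutant and 85.0% in WT. Its counts were 469, 104 and 71 in mutant replicates 1, 2 and 3 and 78, 119 and 426 in WT replicates 1, 2 and 3. One library of each genotype stood far above the rest, mutant replicate 1 at 5.63 CPM and WT replicate 3 at 5.05 CPM, with the other 4 libraries between 0.896 and 1.58 CPM. The group means of 2.63 ± 2.61 CPM in the mutant and 2.56 ± 2.18 CPM in WT (SD, n = 3 each) thus describe no typical library. The log2 fold change was 0.038 (SE 0.84, adjusted p = 0.99), with -1.19 without mutant replicate 1 and 1.0 without WT replicate 3.

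The membrane receptors were close to the limit of detection. The paqr8 gene (ENSDARG00000088828), a membrane progestin receptor (mPR beta), had 42, 61 and 48 counts in mutant replicates 1, 2 and 3 and 24, 69 and 14 counts in WT replicates 1, 2 and 3. WT libraries held both the highest and the lowest value, with a log2 fold change of 0.44 (SE 0.70, 95% interval -1.19 to 2.08, adjusted p = 0.78) that was 1.37 without WT replicate 2 and 0.040 without WT replicate 3. PAQR7 (ENSDARG00000034907), the membrane progestin receptor alpha of oocyte maturation, had 9, 0 and 0 counts in mutant replicates 1, 2 and 3 and 7, 0 and 8 counts in WT replicates 1, 2 and 3. For gper1 (ENSDARG00000074661) the counts were 4, 9 and 3 in the mutant and 8, 0 and 9 in WT. Both genes stayed under 12 counts in each library and under the filter, so no fold change is given, and a difference was not detectable at this depth.

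Across the receptors, the spread lay mainly among the mutant libraries. In 7 of the 8 tested genes the coefficient of variation was larger in the mutant than in WT, which was the case in 56.7% of all genes tested. Mutant replicate 1 was the highest of the 6 libraries in 7 of the 8 genes, and mutant replicate 3 was the lowest in 6 of the 8, against 20.4% and 21.8% of all genes tested. The only gene that broke this order within the mutant was paqr8. Granulosa markers had their highest sum in mutant replicate 1 and their lowest in mutant replicate 3 too. In WT replicates 1, 2 and 3 this sum rose, at 19.4, 25.6 and 32.8 CPM, while lhcgr fell, at 1.11, 1.01 and 0.925 CPM. Oocyte markers ran the other way in the mutant, with sums of 6582, 8021 and 8960 CPM in replicates 1, 2 and 3. In WT replicates 1, 2 and 3 they summed to 8216, 8475 and 8469 CPM. The part of follicle cell or oocyte content in the receptor values was not tested. The numbers of receptors given here describe the libraries, since the receptors are not independent of one another.

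**Figure D4:**
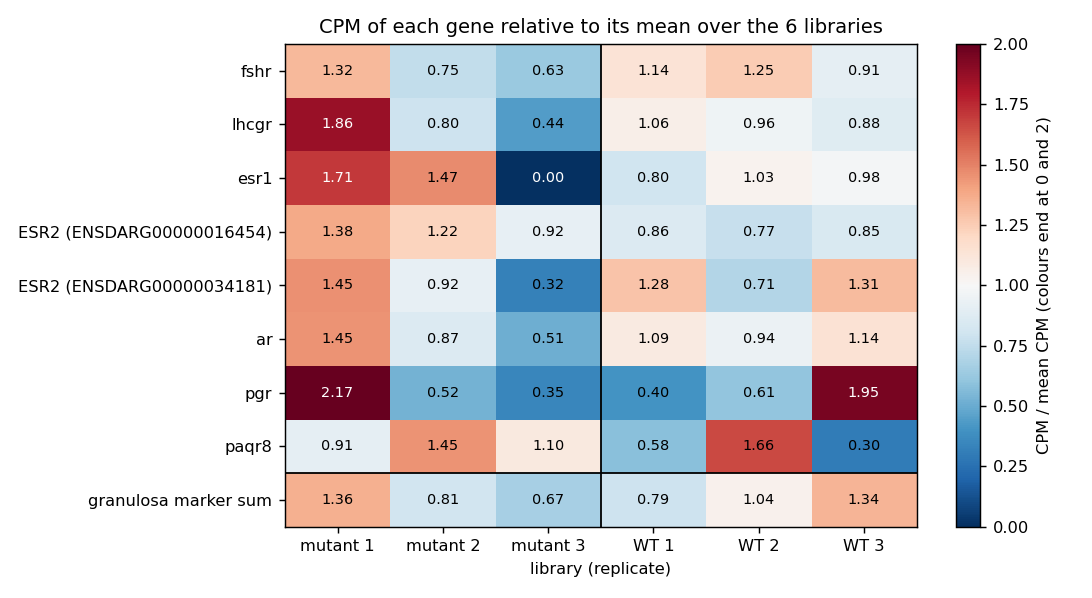
CPM of the 8 tested receptors and the summed granulosa markers in each library, divided by the mean over the 6 libraries, with mutant replicates left and WT replicates right. Values over 1 prevail in mutant replicate 1 and values under 1 in mutant replicate 3, with paqr8 as the exception in the mutant, and pgr is also high in WT replicate 3.

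The genes whose level followed the gonadotropin receptors most closely were found by Pearson's r on log2 CPM over the 6 libraries among 14202 genes with a mean of at least 1 CPM. For fshr these were HPGD (r = 0.993), which codes for an enzyme that inactivates prostaglandins, slc17a5 (r = 0.989), a sialic acid transporter of the lysosome, and ENSDARG00000115178 (r = 0.986). For lhcgr they were VASN (r = 0.989), which codes for a membrane protein that binds TGF-beta, PLEKHG5 (r = 0.988), and KDM2B (r = 0.987), a histone demethylase. With 6 libraries and so many candidates, values of this size describe a shared order of the libraries and no more. Like lhcgr, VASN was highest in mutant replicate 1 at 2.74 CPM and lowest in mutant replicate 3 at 0.732 CPM.

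The ligands of the gonadotropin receptors come from the pituitary. Most genes of their subunits, and of the hormones that release them, were at or near 0 in the ovary. Of 6 gene IDs for gonadotropin subunits and releasing hormones, 2 had no counts in any library and 1, fshb, could be tested. The beta subunit gene fshb had 7, 41 and 38 counts in mutant replicates 1, 2 and 3 and 0, 8 and 25 counts in WT replicates 1, 2 and 3, with a log2 fold change of 1.43 (SE 1.29, adjusted p = 0.60). In WT replicates 1 and 2 and in mutant replicate 1 it was under 12 counts. The list therefore gave 0 calls with edgeR, 0 at an unadjusted p under 0.05 and 0 with DESeq2, which gave an adjusted p to 3 of the IDs.

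Among other receptors that bind progestins or steroids at the membrane, PGRMC1, PGRMC2 and PAQR5 (ENSDARG00000041145) were well counted. Of 8 gene IDs 6 were tested, 0 were called by edgeR, 1 had an unadjusted p under 0.05 and DESeq2 called 1. The median log2 fold change was -0.0054. Over all genes tested, the shares to set beside this and later lists were 4.57% with edgeR and 19.9% unadjusted. DESeq2 called 11.2% of the genes to which it gave an adjusted p. The progesterone receptor membrane components PGRMC1 and PGRMC2, which bind heme, had 38.4 ± 4.76 and 193.2 ± 10.7 CPM in the mutant, against 39.0 ± 1.36 and 192.0 ± 13.2 CPM in WT (SD, n = 3). Their log2 fold changes of -0.020 and 0.0095 had small SE of 0.12 and 0.087. PAQR5 (ENSDARG00000041145), the membrane progestin receptor gamma, is named because DESeq2 called it. It had 896, 652 and 723 counts in mutant replicates 1, 2 and 3 and 1256, 942 and 1236 counts in WT replicates 1, 2 and 3. No mutant library reached a WT library in CPM, and the log2 fold change was -0.63 (SE 0.19, adjusted p = 0.12 with edgeR and 0.019 with DESeq2).

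Among the other nuclear receptors, a pair of orphan estrogen-related receptors were called as higher in the mutant, close to the threshold. Of 7 gene IDs 5 were tested, and 2 were called as higher by edgeR and by DESeq2, beside 1.96% of all genes tested that edgeR called as higher. These receptors resemble the estrogen receptors in sequence but are not bound by estradiol. The esrrb gene (ENSDARG00000100847) had 648, 598 and 364 counts in mutant replicates 1, 2 and 3, against 165, 206 and 153 counts in WT replicates 1, 2 and 3. All mutant libraries were above all WT libraries, with 6.73 ± 1.85 CPM and 2.25 ± 0.458 CPM (SD, n = 3), and the level was 2.99-fold higher (log2 fold change 1.58, standard error 0.32, adjusted p = 0.040). ESRRG (ENSDARG00000004861) had 231, 247 and 228 counts in the mutant and 79, 35 and 58 counts in WT. Here too the genotypes were apart, at 2.96 ± 0.240 CPM in the mutant and 0.738 ± 0.302 CPM in WT (SD, n = 3), which is a log2 change of 2.00 (SE 0.41, adjusted p = 0.040).

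These calls stand near the threshold. With 1 library left out, esrrb was called in 1 of the 6 fits, with an adjusted p between 0.040 and 0.12, and ESRRG in 0 of 6, with an adjusted p between 0.051 and 0.11. Without mutant replicate 2, the library with the liver markers, neither was called, and their log2 fold changes were 1.44 and 1.92. In DESeq2 the adjusted p was 6.6e-05 for esrrb and 0.00018 for ESRRG. The remaining members tested included the glucocorticoid receptor gene NR3C1, with 18.2 ± 1.93 CPM in the mutant and 18.8 ± 0.994 CPM in WT (SD, n = 3). Of the other estrogen-related receptors, ESRRA was not called (log2 fold change 0.22, edgeR adjusted p = 0.57). Under the filter were esrrgb, which overlapped, and esrrd, which went the other way near the floor. The esrrd gene had 0, 4 and 0 counts in mutant replicates 1, 2 and 3 and 20, 6 and 5 counts in WT replicates 1, 2 and 3.

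The chaperones and coregulators that nuclear steroid receptors work with were all counted. Of 21 genes tested, 0 were called by edgeR, 3 had an unadjusted p under 0.05 and DESeq2 called 2, with a median log2 fold change of -0.077. HSP90AB1, the chaperone that holds steroid receptors ready for their ligand, had 2756 ± 253.5 CPM in the mutant and 3057 ± 62.1 CPM in WT, and its co-chaperone STIP1 had 339.8 ± 26.4 and 377.6 ± 28.5 CPM (SD, n = 3). The genes that DESeq2 called were NCOA3, a coactivator of nuclear receptors, with a log2 fold change of 0.76 (adjusted p = 0.14 with edgeR and 0.026 with DESeq2), and CREBBP (ENSDARG00000112452), a histone acetyltransferase, with -0.65 (adjusted p = 0.18 with edgeR and 0.043 with DESeq2).

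Downstream of the gonadotropin receptors, 3 of the 42 tested genes of the cAMP pathway were called as lower in the mutant. The list held 48 gene IDs, and edgeR called 0 as higher. An unadjusted p under 0.05 was found for 5, and DESeq2 called 4. Those 5 included GNAI3 and PDE4B (ENSDARG00000032868), which were higher in the mutant (log2 fold change 1.44 and 0.59). Over all genes tested edgeR called 2.61% as lower, and DESeq2 called 11.2% of the genes to which it gave an adjusted p. The list median was -0.017, beside 0.014 over all genes tested. The summed level was 1305, 1354 and 1220 CPM in mutant replicates 1, 2 and 3, against 1405, 1406 and 1379 CPM in WT replicates 1, 2 and 3, without overlap (exact permutation test, two-sided, p = 0.1, the smallest that 3 against 3 allows). AKAP1, the most counted gene, gave on average 462.6 CPM of this sum in the mutant and 507.8 CPM in WT. It was not called (log2 fold change -0.13, edgeR adjusted p = 0.51). Sums without overlap were not particular to the cAMP list. The chaperone and coregulator list had a lower mean sum in the mutant, 4358 against 4797 CPM in WT. The other nuclear receptors had a higher one, 47.0 against 38.4 CPM (same exact test, p = 0.1 for each). The gene prkar1ab (ENSDARG00000101755), a type I alpha regulatory subunit of protein kinase A, the kinase that cAMP switches on, had the largest fall in the cAMP list. It was counted 31, 17 and 10 times in mutant replicates 1, 2 and 3, against 1092, 1115 and 1071 times in WT replicates 1, 2 and 3. Mutant libraries were thus close to the limit of 12 counts and WT libraries far from it. Levels were 0.240 ± 0.124 CPM in the mutant and 14.0 ± 1.16 CPM in WT (SD, n = 3), which is a log2 change of -5.86 (SE 0.43, adjusted p = 0.00099), and prkar1ab stayed below the threshold whichever library was left out, with an adjusted p of at most 0.0085. The gene with the symbol PRKAR1A (ENSDARG00000076128) had 42.4 ± 3.56 CPM in the mutant and 41.9 ± 2.74 CPM in WT (SD, n = 3), a log2 fold change of 0.018 (SE 0.11, adjusted p = 0.95). How reads were shared between these similar genes is not stated.

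The other genes called in this list were ADCY1 and ADCY9, which code for adenylyl cyclases, the enzymes that make cAMP. Another ID with the symbol ADCY1 (ENSDARG00000088634) was sparsely counted and was not called (log2 fold change 0.59, edgeR adjusted p = 0.74). Nor was any other adenylyl cyclase gene of the list called by edgeR. The most counted of them, ADCY5, had 52.5 ± 16.4 CPM in the mutant and 53.2 ± 4.34 CPM in WT (SD, n = 3, log2 fold change -0.017). ADCY1 (ENSDARG00000069026) had 56, 69 and 86 counts in mutant replicates 1, 2 and 3, against 346, 389 and 192 counts in WT replicates 1, 2 and 3. ADCY9 (ENSDARG00000100869) had 678, 952 and 592 counts in the mutant and 1760, 1521 and 1431 counts in WT. In both, all mutant libraries were below all WT libraries. Log2 fold changes were -2.18 for ADCY1 (SE 0.42, adjusted p = 0.035) and -1.11 for ADCY9 (SE 0.24, adjusted p = 0.049), and each was called in 1 of the 6 fits that left out 1 library. ADCY9 was not called with total-count scaling (adjusted p = 0.054) or with either of the other filters on low counts (0.052 and 0.054). DESeq2 called both, and in addition GNAI3 (ENSDARG00000030644), an inhibitory G protein subunit, with 1.44 on the log2 scale (SE 0.33, adjusted p = 0.056 with edgeR and 0.00089 with DESeq2). The most counted genes of the list, AKAP1, which anchors protein kinase A, and PRKAR2A, had 462.6 ± 47.5 and 137.3 ± 15.3 CPM in the mutant and 507.8 ± 6.61 and 150.5 ± 12.1 CPM in WT (SD, n = 3).

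**Figure D5:**
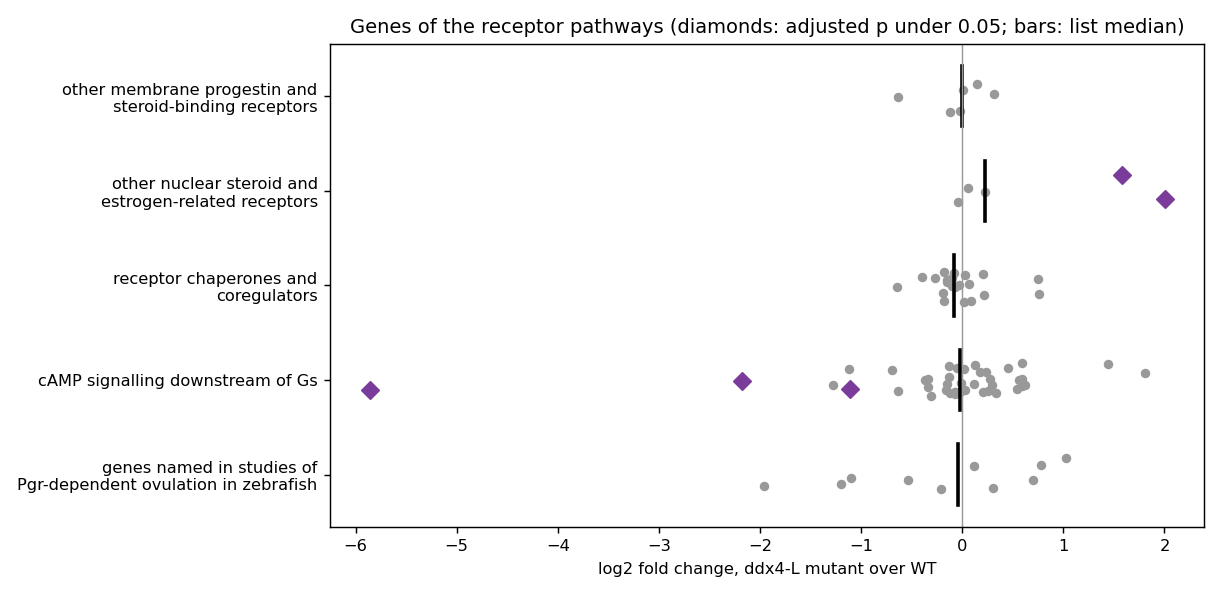
Log2 fold change of ddx4-L mutant over WT for the tested genes of 5 pathway lists, with genes called by edgeR as diamonds, other genes as grey points and the list median as a bar. The diamonds are ESRRG at 2.00 and esrrb at 1.58, and ADCY9 at -1.11, ADCY1 at -2.18 and prkar1ab at -5.86, while the 5 medians lie between -0.077 and 0.22.

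Genes named in studies of Pgr-dependent ovulation gave no calls. Of 12 gene IDs 10 were tested, 0 were called by edgeR, 2 had an unadjusted p under 0.05 and DESeq2 called 2, with a median log2 fold change of -0.045. The prostaglandin receptor gene PTGER4 (ENSDARG00000059236) had 56, 45 and 116 counts in mutant replicates 1, 2 and 3 and 286, 292 and 243 counts in WT replicates 1, 2 and 3, with a log2 fold change of -1.96 (SE 0.45, adjusted p = 0.056 with edgeR and 0.00057 with DESeq2). Its paralog PTGER4 (ENSDARG00000035415) stood at -0.21 (adjusted p = 0.81). MMP9, a matrix metalloprotease, had 19.8 ± 2.82 CPM in the mutant and 11.6 ± 1.68 CPM in WT (SD, n = 3) and no overlap, at a log2 fold change of 0.78 (adjusted p = 0.059 with edgeR and 0.0021 with DESeq2).

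Among estrogen-responsive genes, the list was dominated by the library with liver markers. Of 8 gene IDs 7 were tested and 0 were called by edgeR, while 6 had an unadjusted p under 0.05. DESeq2 gave no adjusted p to any vitellogenin gene. The vtg1 gene had 16.4, 2118 and 0.479 CPM in mutant replicates 1, 2 and 3, against 1.65, 0.106 and 1.54 CPM in WT replicates 1, 2 and 3, and vtg5 followed with 247.0 CPM in mutant replicate 2. The median log2 fold change of the list was 7.77 with all libraries and 1.09 without mutant replicate 2. CYP19A1 (ENSDARG00000041348), an aromatase that makes estrogen, had 2.47, 1.56 and 1.29 CPM in the mutant and 0.967, 2.22 and 6.55 CPM in WT, with a log2 fold change of -0.87 (adjusted p = 0.53). The names cyp19a1a and cyp19a1b both led to this ID without their final letter, and which of them it is was not settled. The same ID also stands among the granulosa markers.

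In the lists of theca and steroidogenic markers and of oocyte markers, edgeR called 1 gene each and DESeq2 called 2 each. CYP11A1 (ENSDARG00000002347), the enzyme that starts steroid synthesis from cholesterol, had 132.0, 140.0 and 118.9 CPM in mutant replicates 1, 2 and 3, against 185.7, 231.3 and 223.4 CPM in WT replicates 1, 2 and 3, without overlap. It was the only gene that edgeR called of 8 tested theca and steroidogenic markers (log2 fold change -0.71, standard error 0.11, adjusted p = 0.017), and it was called in 3 of the 6 fits that left out 1 library. Another ID with this symbol, CYP11A1 (ENSDARG00000092696), had 0.944 ± 0.322 CPM in the mutant and 0.911 ± 0.163 CPM in WT (SD, n = 3). Its log2 fold change was 0.053 (edgeR adjusted p = 0.96). DESeq2 also called hsd3b1, a steroid dehydrogenase of this pathway (log2 fold change -1.54, adjusted p = 0.20 with edgeR and 0.0497 with DESeq2). CYP17A1 of the same list went the other way, without overlap, at 84.6 ± 5.41 CPM in the mutant and 60.0 ± 23.4 CPM in WT (SD, n = 3). Its log2 fold change was 0.50 (adjusted p = 0.38 with edgeR and 0.28 with DESeq2). The most counted gene of the list was CYP11A1 (ENSDARG00000002347). The summed level of these markers was 222.8, 234.2 and 207.9 CPM in mutant replicates 1, 2 and 3. In WT replicates 1, 2 and 3 it was 267.0, 315.4 and 271.9 CPM, without overlap (exact permutation test, two-sided, p = 0.1, the smallest that 3 against 3 allows). Of this sum, CYP11A1 (ENSDARG00000002347) gave on average 130.3 CPM in the mutant and 213.5 CPM in WT. The lower sum in the mutant therefore rests mainly on this gene. The median log2 fold change of the 8 tested genes was also below 0, at -0.45, and at -0.79 without mutant replicate 2. Over all genes tested the median was 0.014. GDF9, a growth factor that the oocyte sends to the follicle cells, was the only gene that edgeR called of 11 oocyte markers, with 40.0 ± 1.25 CPM in the mutant and 70.7 ± 5.19 CPM in WT (SD, n = 3), a log2 fold change of -0.82 (SE 0.095, adjusted p = 0.0064). DESeq2 also called NANOS3, a germ cell RNA-binding protein gene (log2 fold change 0.73, adjusted p = 0.13 with edgeR and 0.022 with DESeq2).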

How the data were processed

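RNA was sequenced from ovaries of 3 ddx4-L mutant and 3 WT zebrafish. The deposited values are estimated counts per Ensembl gene, for which the methods of the authors name Cutadapt, STAR and featureCounts on GRCz11, whereas the processing notes of the submitters name HISAT2, StringTie, RSEM and DESeq2. Which of these made the table, how multiply mapped reads were counted and whether strand was used are not given in the sources used here. They are whole numbers not scaled between libraries, and were read as estimated rather than raw because their sums exceed the reads, so the planned count test was run on them as deposited. The number of other per-sample columns was 0. Symbols came from a table that matched 29200 of the 32519 IDs. No transcript lengths were used, so shares of a marker or list sum and the ranks of most counted genes are not levels per length.

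Genes passing filterByExpr were scaled by TMM and tested with edgeR 4.0.16 (glmQLFit, glmQLFTest, genotype only) in R 4.3.3, with Benjamini-Hochberg adjustment over the 19353 genes tested. The standard error is the log2 fold change over the root of F. Called genes had an adjusted p under 0.05. Alternatives were DESeq2 1.42.0, scaling by RLE, by upper quartile or by total count, a filter that kept any gene with a count or those averaging 10 counts, a replicate block, values divided by 4, and each library left out. The test was tested on counts simulated from its own fitted means and spread, which hold no outlying library and no unit of about 4 counts. Figures used matplotlib 3.10.9. Genes named were the members, the called genes of each list or otherwise its 2 most counted tested genes, and the 3 genes most like fshr and lhcgr. PAQR5, fabp10a, NCOA3, hsd3b1, CYP17A1, NANOS3, CREBBP, GNAI3, PDE4B, ADCY5, PRKAR1A, CYP19A1 and PTGER4 (ENSDARG00000059236) were named after their values were seen. The same holds for the genes named from lists with a call. Members and lists were chosen with earlier results of these data known. P-values set a difference against the spread between these samples, part of which may be technical.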

Additional observations from a re-analysis of the deposited data

How the results depend on the processing

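The number of called receptor genes was 0 under each of the 14 alternatives. The direction of single receptors was less stable. Under the replicate block the log2 fold change was -0.14 for lhcgr, -0.61 for esr1 and -0.12 for pgr, each against a positive value without the block. Without mutant replicate 1 it was -0.64 for lhcgr, -0.35 for esr1 and -1.19 for pgr. Without mutant replicate 2 that of esr1 was -0.16. With 1 library left out, the extremes on the other side were 0.46 for lhcgr and 0.76 for esr1 (both without mutant replicate 3), -0.83 for ESR2 (ENSDARG00000034181) and -0.63 for ar (both without mutant replicate 1) and 1.0 for pgr (without WT replicate 3). Without mutant replicate 3 the log2 fold change was 0.11 for ESR2 (ENSDARG00000034181) and 0.13 for ar, against negative values with all libraries. That of pgr was -0.34 without WT replicate 1 and -0.23 without WT replicate 2. None of these passed the threshold, and the other 101 of the 112 receptor values kept their direction. The cause was not tested.

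Over all genes, edgeR called 884 genes, DESeq2 2368, the replicate block 325, and the fits that left out 1 library between 380 and 553, with fewer samples in each. Of the 92 pathway genes tested, edgeR called 5, DESeq2 11 and the replicate block 1, and values divided by 4 gave 8. Leaving out 1 library gave 1 to 3, of which prkar1ab was called in each. Over all genes, edgeR called 4.57% of those tested, and DESeq2 called 11.2% of those with an adjusted p. The labels do not state whether replicate numbers pair the samples. Deviations of same-numbered libraries correlated at -0.074, 0.083 and -0.018 across genes, and the largest value was 0.174, for mutant replicate 1 with WT replicate 3. With 3 libraries per genotype, such values cannot decide whether samples were paired. With total-count scaling the median over all genes was 0.096 on the log2 scale, against 0.014 with TMM. Counts under 12 limited PAQR7 and gper1.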

Other observations

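Stroma and leukocyte markers overlapped between the genotypes. Stroma and smooth muscle markers summed to 214.3, 39.2 and 110.2 CPM in mutant replicates 1, 2 and 3, against 55.8, 37.9 and 124.8 CPM in WT replicates 1, 2 and 3 (exact permutation test, two-sided, p = 0.6). The collagen genes col1a1a and COL1A1 (ENSDARG00000035809) led this list, with 48.4 and 46.6 CPM in mutant replicate 1 and 4.20 and 3.16 CPM in mutant replicate 2. Leukocyte markers, led by the antigen-presentation genes cd74a and cd74b, summed to 102.4, 37.0 and 80.8 CPM in the mutant and 23.6, 41.3 and 71.1 CPM in WT (exact permutation test, two-sided, p = 0.3). Of 12 stroma and 8 leukocyte genes tested, edgeR called 0, while 2 and 1 had an unadjusted p under 0.05 and DESeq2 called 1 and 0. Mutant replicate 1 was highest in both lists, as it was for 7 of the 8 receptors, whereas mutant replicate 3, lowest for 6 receptors, lay above mutant replicate 2 in both.

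Blood markers, such as hbaa1 with 14.0 CPM in WT replicate 1 and at most 2.27 CPM elsewhere, and SLC4A1, gave 0 calls among 5 genes tested with edgeR, 0 at an unadjusted p under 0.05 and 0 with DESeq2. Pituitary markers summed to 1.1 to 1.73 CPM in the mutant and 1.05 to 1.32 CPM in WT. Of these, prl had 1.31 ± 0.250 CPM in the mutant and 0.745 ± 0.0753 CPM in WT (SD, n = 3, edgeR adjusted p = 0.30), and gh1 stayed between 0 and 0.261 CPM. Neither was called by DESeq2 or had an unadjusted p under 0.05. Of the gut and skeletal muscle markers, actc1b, a cardiac and skeletal actin, was called as lower in the mutant, with 0.192 ± 0.0739 CPM, against 1.43 ± 0.740 CPM in WT (SD, n = 3, log2 fold change -2.88, edgeR adjusted p = 0.046), and it was called in 1 of the 6 fits that left out 1 library and with neither of the other filters on low counts (adjusted p = 0.053 and 0.051).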
